A study of Mus musculus with 8 samples.

Results

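Lymphocytes kill target cells with proteins stored in cytotoxic granules, and the transcripts of 10 granule genes were followed here in regulatory and conventional CD4+ T cells of mice whose dendritic cells express CD70, the ligand of the costimulatory receptor CD27. The members, fixed by name, were the granzymes *Gzma*, *Gzmb*, *Gzmc*, *Gzmk* and *Gzmm*, the pore-forming protein gene *Prf1*, the granule genes *Nkg7* and *Srgn*, the protease gene *Ctsw* and the granzyme B inhibitor gene *Serpinb9*. Each name matched 1 row, giving 10 of the 52636 rows of the expression table, and all 10 passed the minimum for testing. *Gzma* and *Gzmm*, with 1 and 0 control libraries at the minimum, passed it only through CD70Tg libraries, and *Gzmc* only through 1 control library of each subset.

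RNA was sequenced from splenic CD4+ T cells of mice 6 to 8 weeks old, sorted as Foxp3-GFP- conventional cells (Tconvs) or Foxp3-GFP+ regulatory cells (Tregs), with 200000 cells in each library. Controls were CD27+/- mice, and CD11c-*Cd70*tg;CD27+/- mice (CD70Tg) carried in addition a *Cd70* transgene driven by the CD11c promoter, so that every animal had a single intact *Cd27* allele, and mice of both genotypes came from crosses to the Foxp3eGFP reporter. Each of the 4 groups had 2 libraries, called first and second below by their place in the table, which is a name only. The sources used here do not say whether the 2 libraries came from separate mice, so that the spread between them may be technical. The p-values rest on a single spread per gene, shared by the 4 groups and drawn towards that of genes of similar level.

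Granzymes are serine proteases that perforin lets into the target cell, where granzyme B cleaves its substrates after aspartate and sets off apoptosis. The proteins are held in the granule by the proteoglycan serglycin, the product of *Srgn*, and the membrane protein encoded by *Nkg7* takes part in granule release. CD8+ T cells and NK cells are the best known carriers of this machinery, but activated CD4+ T cells can also express it, and granzyme B and perforin have been described as suppressive tools of Tregs.

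The members lie at several loci of the mouse genome (GRCm38, GENCODE M21), and all are protein-coding. *Gzma* (chromosome 13, 113093825 to 113100981) and *Gzmk* (chromosome 13, 113171608 to 113225908) are neighbours on the minus strand with 70626 bases between them. The 2 genes annotated in that gap, the pseudogene *Gm9848* and the long noncoding RNA *1700084D21Rik*, were listed at 0 in all 8 libraries. *Gzmb* (chromosome 14, 56258838 to 56262260) and *Gzmc* (chromosome 14, 56231441 to 56234656) are also neighbours on the minus strand, 24181 bases apart, and *Gm24118* and *Gm4819* between them were likewise listed at 0. On chromosome 10 lie *Prf1* (61297833 to 61304680), *Srgn* (62493833 to 62527451) and *Gzmm* (79689020 to 79695261). *Nkg7* is on chromosome 7 (43437073 to 43438249), *Ctsw* on chromosome 19 (5465043 to 5468507) and *Serpinb9* on chromosome 13 (33003250 to 33017957). Of the 50-base words in the transcripts of *Gzmc*, 4.14% also occurred in transcripts of *Gzmd*, *Gzme* or *Gzmg*, so that its reads could be shared with these genes. For *Serpinb9* the share was 0.378% with *Serpinb9b*, and for the other 8 members it was 0%.

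The 250 bases before the RefSeq transcription start (GRCm38.p6) are shown for the 5 members that rose in both subsets (below), because T-box factors such as Eomes and T-bet, which bind the letters AGGTGT, are textbook regulators of this gene set. Matches to AGGTGT on either strand are in capitals, and no overlap with the other motifs was removed. The sequences are chr13:113180966-113181215 (*Gzmk*, minus strand), chr13:113100982-113101231 (*Gzma*, minus strand), chr10:61297586-61297835 (*Prf1*, plus strand), chr7:43436888-43437137 (*Nkg7*, plus strand) and chr14:56262335-56262584 (*Gzmb*, minus strand).
Gzmk: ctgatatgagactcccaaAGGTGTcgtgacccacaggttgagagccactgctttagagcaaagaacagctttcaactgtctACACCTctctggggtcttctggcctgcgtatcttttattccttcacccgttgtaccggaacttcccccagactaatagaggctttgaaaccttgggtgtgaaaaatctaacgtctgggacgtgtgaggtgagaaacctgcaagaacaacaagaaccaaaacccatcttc
Gzma: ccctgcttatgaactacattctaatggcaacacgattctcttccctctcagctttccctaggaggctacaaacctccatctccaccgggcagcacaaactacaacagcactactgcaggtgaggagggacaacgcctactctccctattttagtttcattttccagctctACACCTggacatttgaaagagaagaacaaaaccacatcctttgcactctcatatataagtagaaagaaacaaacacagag
Prf1: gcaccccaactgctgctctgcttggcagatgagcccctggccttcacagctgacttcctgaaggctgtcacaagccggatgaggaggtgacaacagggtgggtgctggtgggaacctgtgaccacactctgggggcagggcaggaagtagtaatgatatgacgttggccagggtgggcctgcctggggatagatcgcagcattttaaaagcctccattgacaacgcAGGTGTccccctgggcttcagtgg
Nkg7: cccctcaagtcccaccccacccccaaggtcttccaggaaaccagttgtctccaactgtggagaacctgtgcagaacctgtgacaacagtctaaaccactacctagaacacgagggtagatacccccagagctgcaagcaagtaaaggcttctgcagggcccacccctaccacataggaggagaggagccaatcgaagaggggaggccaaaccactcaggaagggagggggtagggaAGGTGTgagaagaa
Gzmb: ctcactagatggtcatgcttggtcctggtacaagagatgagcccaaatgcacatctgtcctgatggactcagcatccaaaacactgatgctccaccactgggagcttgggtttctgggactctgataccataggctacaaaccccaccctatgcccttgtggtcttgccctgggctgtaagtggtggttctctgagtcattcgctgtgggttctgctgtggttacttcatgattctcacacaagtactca

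*Gzmk* held 2 matches, at -232 and -169 from the RefSeq start, and *Gzma*, *Prf1* and *Nkg7* held 1 match each, at -80, -24 and -14. RefSeq and GENCODE can place the start differently, and the *Gzmk* window lies inside the GENCODE span of that gene. For *Gzmk*, *Gzmb* and *Prf1* the 50 bases after the RefSeq start were not found whole in a GENCODE transcript of the gene. *Gzmb* held none. In the whole RefSeq windows of 300 bases (250 before and 50 after the start), given for 9 of the 10 members, 5 members held AGGTGT, the fifth being *Gzmc*, in which it lies just after the start and whose RNA did not rise. Of all 32851 windows in the RefSeq table, 13.7% held these letters. The Runx letters ACCACA were found in 8 of the 9 members and in 16.8% of all windows. *Gzmm* and *Srgn* have 2 windows each, and a member was counted if either held the letters, whereas the shares over all count single windows. *Srgn* held ACCACA in its second window only. The AP-1 letters TGANTCA occurred among the members in *Gzmb* alone, against 7.81% of all windows, and the ETS letters GGAAGT in *Gzmc*, *Gzmk*, *Prf1* and *Srgn*, against 23.8%. A match describes letters in a window and is not evidence of binding.

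Before the members, the sorted populations were checked. *Foxp3* lay between 19769 and 21367 in the Treg libraries and between 1039 and 1497 in the Tconv libraries, in counts per 20 M (the unit of all values below). *Cd27* was read in all 8 libraries (2980 to 6123). *Cd70*, whose transgene is not meant to be expressed in T cells, was scarce, at 0 to 9 in the 4 control libraries and at 11 to 44 in the 4 CD70Tg libraries. Of these 8 values, 4 lay under the floor of 3 reads given next, and the value of 11 rested on 1 read. From the smallest step between values, the libraries held between 1.90 and 33.1 M reads on genes, with Tregs at 1.90 to 4.52 M and Tconvs at 6.90 to 33.1 M. The floor, set at 3 reads, was therefore worth between 1.80 and 8.64 in Tconvs and between 13.1 and 31.3 in Tregs, and it covers counting error only.

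CD70 expression by dendritic cells was accompanied by higher granule gene RNA in both subsets. In Tregs, 5 of the 10 members were higher in CD70Tg than in control mice, while 2.53% of all 12816 genes tested were called higher. In Tconvs, 7 of the 10 were higher, against 4.07% of all genes. Without *Gzma* and *Gzmm*, which were tested only because of their values in CD70Tg libraries, the counts were 4 in Tregs and 5 in Tconvs. *Gzma*, *Gzmb*, *Gzmk*, *Prf1* and *Nkg7* passed in both subsets, as did 1.36% of all genes tested. A gene was called when limma gave an adjusted p-value under 0.05 and a log2 fold change over 1 in size. No member was called lower in either subset by limma. At an unadjusted p-value under 0.05, 0 members were lower in Tregs and 1 in Tconvs (*Gzmc*), which limma-voom on the recovered numbers of reads called lower. Over all genes, 21.6% in Tregs and 19.1% in Tconvs had such a p-value in either direction. Both CD70Tg libraries lay above both controls for 9 members in each subset and below them for *Gzmc*. *Gzma* and *Gzmm* are among the 9, and passing the minimum through CD70Tg libraries favours that order. In the same way, passing it through control libraries favours the order of *Gzmc*. Such separation upwards was seen for 22.5% of all genes in Tregs and 23.7% in Tconvs, and downwards for 31.2% and 21.4%. As the samples are bulk RNA, more cells that express a gene and more RNA per cell cannot be told apart.

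**Figure D1:**
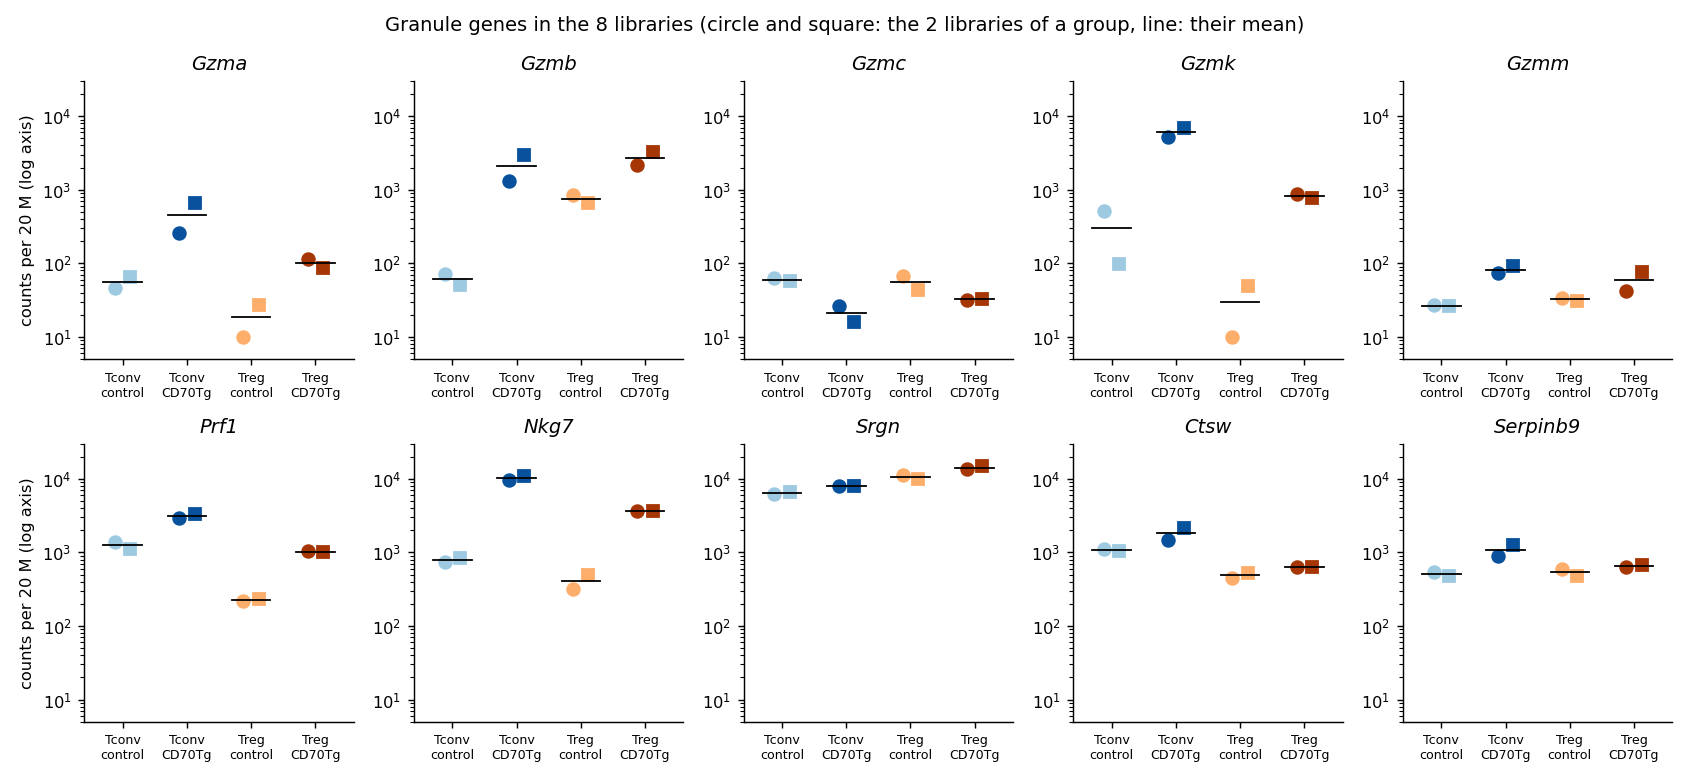
Values of the 10 members in the 8 libraries, in counts per 20 M on a log axis, with 1 symbol per library and a line at the group mean (n = 2). In both subsets the CD70Tg libraries lie above the control libraries in all panels except *Gzmc*, and *Gzmb* starts from 51 and 72 in control Tconvs but from 666 and 850 in control Tregs.

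*Gzmb* encodes granzyme B, the apoptosis-inducing protease of the family. In Tconvs it was at 72 and 51 in the control libraries and at 1323 and 2941 in the CD70Tg libraries. The Treg libraries were at 850 and 666 in controls and at 2174 and 3246 in CD70Tg mice. Control Tconvs stood far below the other 3 groups, and the CD70Tg libraries of the 2 subsets overlapped. The log2 fold change with CD70 was 4.91 (SE 0.29; adjusted p = 5.6e-09) in Tconvs and 1.81 (SE 0.29, adjusted p = 8.7e-04) in Tregs. The Treg response minus the Tconv response was -3.10 on the log2 scale (95% interval -3.96 to -2.24, adjusted p = 8.7e-04). *Gzmb* was the 1 member of 10 whose responses differed, against 1.02% of all genes (25 above 0 and 106 below, or 35 and 72 with quantile normalization). Its call in Tregs was lost without a minimum value (adjusted p = 0.066) and without a trend in the prior variance (adjusted p = 0.059). The call on the difference was lost under both settings (adjusted p = 0.23 and 0.12) and with limma-voom (adjusted p = 0.075).

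*Gzmk* encodes granzyme K, a tryptase-like granzyme. It showed the largest log2 fold change of the 10 members in Tregs. In Tconvs it was at 506 and 99 in controls and at 5259 and 6797 in CD70Tg mice, a log2 fold change of 4.70 (SE 0.55, adjusted p = 2.1e-05). In control Tregs it was at 10 and 49, values that 2 and 11 reads gave, and in CD70Tg Tregs at 878 and 778, a log2 fold change of 4.87 (SE 0.55, adjusted p = 4.9e-05). The control libraries thus differed several-fold from each other in both subsets, and the first control Treg library was under its floor. The Treg fold change was 3.94 without the first control Treg library and 5.79 without the second. In Tconvs it was 5.85 without the first control library and 3.55 without the second. With limma-voom on reads the Treg difference did not pass (adjusted p = 0.085). The difference between the 2 responses was 0.17 (95% interval -1.48 to 1.82, adjusted p = 0.96). Its sign turned with the library left out, from 1.32 without the second to -0.98 without the first control Tconv library, and it was also below 0 without the first control Treg library (-0.75) or the first CD70Tg Tconv library and with a pseudocount of 20.

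*Gzma*, the tryptase-like granzyme next to *Gzmk*, followed at lower levels. In Tconvs the controls were at 46 and 65 and the CD70Tg libraries at 257 and 661. In Tregs the controls were at 10 and 27, from 2 and 6 reads, and the CD70Tg libraries at 115 and 87, from 11 and 16 reads. The groups did not overlap in either subset, but the Treg values rest on few reads. The log2 fold change was 2.81 (SE 0.45, adjusted p = 5.1e-04) in Tconvs and 2.26 (SE 0.45, adjusted p = 0.0056) in Tregs. The call in Tregs was lost without the first control Treg library (adjusted p = 0.083) or the first CD70Tg Treg library (adjusted p = 0.054), without a minimum value (adjusted p = 0.088), without a trend (adjusted p = 0.063) and with limma-voom (adjusted p = 0.41). In Tconvs it was lost without a minimum value (adjusted p = 0.062), and the fold change was 3.48 without the first CD70Tg library and 2.13 without the second.

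The remaining granzymes were scarce. *Gzmm*, which encodes a granzyme that cleaves after methionine, was at 27 and 26 in control and 73 and 91 in CD70Tg Tconvs, a log2 fold change of 1.46 (SE 0.41, adjusted p = 0.034). That call was lost when any 1 of the 4 Tconv libraries was left out (adjusted p = 0.068 to 0.23). In Tregs *Gzmm* was at 34 and 31 in controls and at 42 and 77 in CD70Tg mice, a log2 fold change of 0.73 that did not pass (SE 0.41, adjusted p = 0.33). *Gzmc* was the member with lower values in CD70Tg mice. It was at 63 and 57 in control and 26 and 16 in CD70Tg Tconvs (log2 fold change -1.35, SE 0.42, adjusted p = 0.059). Control Tregs were at 68 and 44 and CD70Tg Tregs at 32 and 33 (log2 fold change -0.67, SE 0.42, adjusted p = 0.39), from 14, 10, 3 and 6 reads. Limma-voom called *Gzmc* lower in Tconvs (adjusted p = 0.0042), as did the fit without a trend (adjusted p = 0.028) and those without the first (adjusted p = 0.048) or second (adjusted p = 0.049) CD70Tg Treg library.

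*Prf1* encodes perforin, the pore through which granzymes reach the cytosol of the target. In Tconvs it was at 1389 and 1120 in controls and at 2971 and 3335 in CD70Tg mice. Control Tregs held 219 and 233 and CD70Tg Tregs 1056 and 1001, slightly under the control Tconvs. The order of the 4 groups was therefore control Tregs, CD70Tg Tregs, control Tconvs and CD70Tg Tconvs, with no overlap between neighbours, although CD70Tg Tregs and control Tconvs, 1056 and 1120 at the nearest, were not tested against each other. The log2 fold change was 2.16 in Tregs (SE 0.15; adjusted p-value of 3.2e-07), while Tconvs gave 1.33 (SE 0.15; adjusted p-value of 1.1e-05). The Treg response was larger by 0.83 (95% interval 0.39 to 1.27), which did not pass after adjustment (adjusted p = 0.077). That difference passed with median-of-ratios factors (adjusted p = 0.022), with quantile normalization (adjusted p = 0.017) and without the second control Tconv library (adjusted p = 0.045).

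*Nkg7*, whose product acts in granule exocytosis, had the smallest standard error relative to its log2 fold change of the 10 members in both subsets. In Tconvs it was at 744 and 829 in controls and at 9624 and 10964 in CD70Tg mice, a log2 fold change of 3.70 (SE 0.16, adjusted p = 7.9e-10). Control Tregs were at 316 and 491 and CD70Tg Tregs at 3657 and 3681, a log2 fold change of 3.20 (SE 0.16, adjusted p = 6.1e-09). The highest of the 4 control libraries (829) lay far below the lowest of the 4 CD70Tg libraries (3657). Both calls held under each of the 18 alternatives that gave a value. The Treg response minus the Tconv response was -0.50 (95% interval -0.99 to -0.01, adjusted p = 0.46).

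*Srgn* encodes the scaffold that stores granzymes and perforin. Its level per kb of exon was the highest of the 10 members in every library except the CD70Tg Tconv libraries, where *Nkg7* and *Gzmk* were higher. It was at 6314 and 6581 in control and 7935 and 7962 in CD70Tg Tconvs, and at 11287 and 9917 in control and 13416 and 15056 in CD70Tg Tregs. The log2 fold changes, 0.30 (adjusted p = 0.14) for Tconvs and 0.43 (adjusted p = 0.034) for Tregs, were under the fold threshold, although the groups did not overlap. *Srgn* was thus high in all 8 libraries, those without the transgene included.

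*Ctsw*, a cysteine protease known from NK and CD8+ T cells, was at 1098 and 1030 in control and 1487 and 2150 in CD70Tg Tconvs (log2 fold change 0.75, SE 0.17, adjusted p = 0.0089, under the fold threshold). In Tregs it was at 447 and 526 in controls and at 638 and 637 in CD70Tg mice (log2 fold change 0.39, SE 0.17, adjusted p = 0.19). *Serpinb9*, the serpin that protects cells from their own granzyme B, was at 543 and 473 in control and 897 and 1257 in CD70Tg Tconvs, a log2 fold change of 1.06 (SE 0.18, adjusted p = 0.0010). In Tregs it was at 597 and 482 in controls and at 638 and 669 in CD70Tg mice, a log2 fold change of 0.28 that did not pass (SE 0.18, adjusted p = 0.41). The *Serpinb9* call in Tconvs fell under the fold threshold without the second control library (0.96), without the second CD70Tg library (0.82) and with quantile normalization (0.98), while *Ctsw* exceeded it without the first CD70Tg library (1.01). The difference between the *Serpinb9* responses was -0.78 (95% interval -1.33 to -0.23, adjusted p = 0.23).

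**Figure D2:**
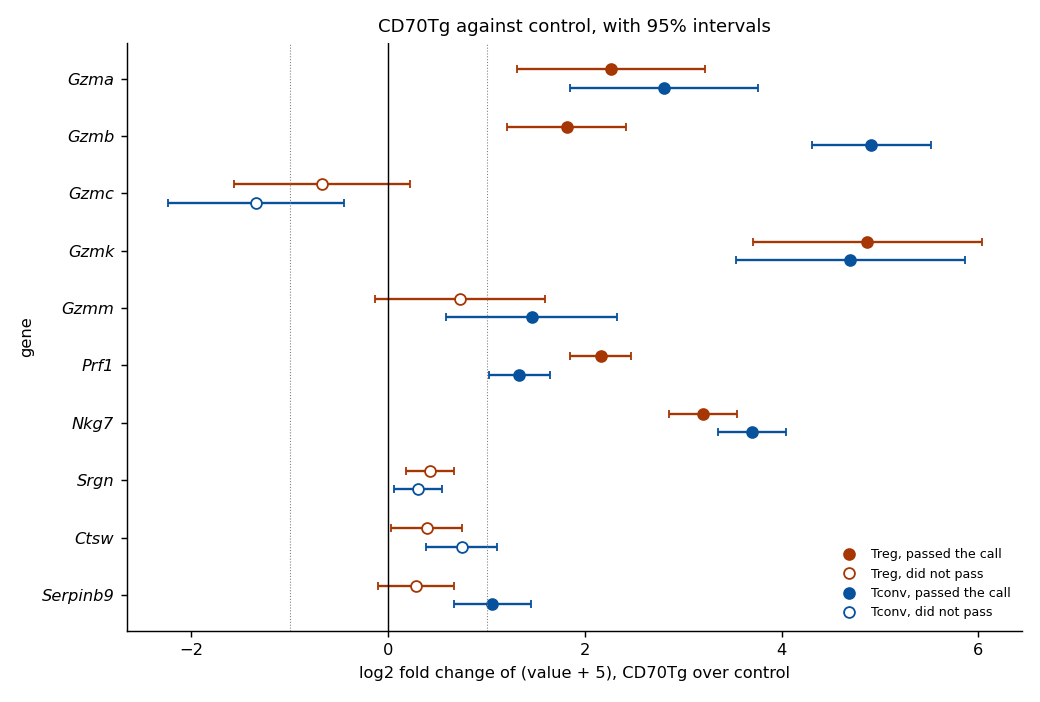
Log2 fold change of CD70Tg over control for each member in Tregs and Tconvs, on the log2(value + 5) scale, with 95% intervals from the fit over 8 libraries; filled symbols passed the call and dotted lines mark the fold threshold. The Treg and Tconv intervals of *Gzmb* lie apart, at 1.81 and 4.91, whereas those of *Gzmk* overlap at 4.87 and 4.70.

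The subsets also differed in granule gene RNA in mice without the *Cd70* transgene. Among control mice, *Gzmb* was higher in Tregs than in Tconvs by 3.53 on the log2 scale (SE 0.29, adjusted p = 7.1e-08), the 1 member called higher, against 14.7% of all genes. The 4 members called lower in Tregs, against 4.43% of all genes, were *Gzmk* (log2 fold change -3.02, adjusted p = 3.3e-04), *Prf1* (-2.44, adjusted p = 2.1e-09), *Gzma* (-1.45, adjusted p = 0.015) and *Ctsw* (-1.12, adjusted p = 6.0e-05). Over all genes, 1887 were higher and 568 lower in control Tregs, a split that quantile normalization moved to 1238 and 891. *Nkg7* was lower by just under the fold threshold (-0.99, adjusted p = 1.4e-04), which it passed with median-of-ratios factors (-1.06) and quantile normalization (-1.09), and *Srgn* was higher without reaching it (0.71, adjusted p = 1.1e-04). Control Tregs thus held more granzyme B RNA and less perforin RNA than control Tconvs. The *Gzmk* value was -1.87 without the first and -4.17 without the second control Tconv library, -2.09 without the first and -3.94 without the second control Treg library, and it did not pass with limma-voom (adjusted p = 0.052). The *Gzma* call was lost under 6 of 17 alternatives, among them leaving out the first control Treg library (adjusted p = 0.16) or the second control Tconv library (adjusted p = 0.10).

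Among CD70Tg mice, *Gzmb* no longer passed (log2 fold change 0.43 for Tregs over Tconvs, 95% interval -0.18 to 1.03, adjusted p = 0.24), although it did without the second CD70Tg Tconv library (1.00, adjusted p = 0.0081). Without the first CD70Tg Tconv library its direction turned (-0.15, adjusted p = 0.68). In these mice 5 members were called lower in Tregs, against 4.94% of all genes, and none higher by limma, against 12.3%. At an unadjusted p-value under 0.05, 1 member was higher (*Srgn*, 0.84, adjusted p = 3.2e-05, under the fold threshold). Over all genes, 50.5% had such a p-value in either direction. Here the split over all genes was 1577 higher and 633 lower, and 1266 and 901 with quantile normalization. The 5 lower members were *Gzmk* (-2.85, adjusted p = 6.6e-04), *Gzma* (-1.99, adjusted p = 0.0022), *Prf1* (-1.61, adjusted p = 3.7e-07), *Nkg7* (-1.48, adjusted p = 3.2e-06) and *Ctsw* (-1.48, adjusted p = 5.0e-06). *Gzma* did not pass without the second CD70Tg Tconv library (-1.32, adjusted p = 0.062), and was at -2.66 without the first. Purification differed between the subsets, as CD25+ cells were depleted for Tconvs but not for Tregs, and this cannot be told apart from the subset.

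**Figure D3:**
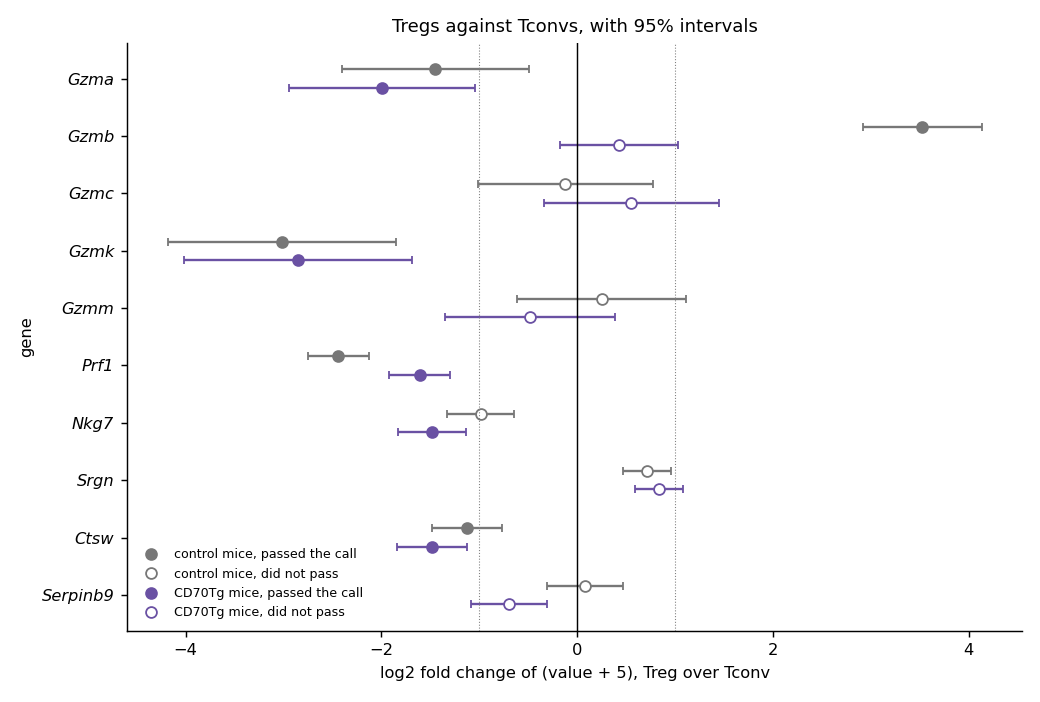
Log2 fold change of Tregs over Tconvs for each member, within control and within CD70Tg mice, on the log2(value + 5) scale with 95% intervals; filled symbols passed the call and dotted lines mark the fold threshold. *Gzmb* lies at 3.53 in control and 0.43 in CD70Tg mice, while *Prf1* and *Gzmk* stay on the Tconv side in both.

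*Gzmb* RNA in control Tconvs was 8.11% of its level in control Tregs, beside 6.36% for *Foxp3*, 4.40% for *Ikzf2* and 3.64% for *Il2ra*, markers of the Tregs that the sort sets apart. In CD70Tg mice the *Gzmb* share was 78.7%, and 109% without the first and 48.8% without the second CD70Tg Tconv library, with *Foxp3* at 5.78%, *Ikzf2* at 5.15% and *Il2ra* at 3.57%. *Foxp3* and CD25 (*Il2ra*) were themselves used to separate the subsets. *Ctla4* was at 493 and 496 in control Tconvs and 10142 and 10898 in control Tregs, and *Tnfrsf18* at 1886 and 1750 against 7580 and 7264. In CD70Tg mice *Ctla4* was at 663 and 1090 against 8453 and 8890, and *Tnfrsf18* at 1758 and 2769 against 8244 and 8656. The part of Tregs in the Tconv *Gzmb* RNA was not tested.

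To compare granzymes with each other, values were divided by the length of the annotated exons. The sum of the 5 granzymes was 549 and 253 per kb in control Tconvs and 5042 and 7678 per kb in CD70Tg Tconvs. In Tregs it was 708 and 596 per kb in controls and 2325 and 2996 per kb in CD70Tg mice. Control Tregs exceeded control Tconvs in this sum, and CD70Tg Tregs lay below CD70Tg Tconvs. In Tregs *Gzmb* made up 83.6% and 77.8% of the granzyme sum in controls and 65.1% and 75.4% in CD70Tg mice. *Gzmk* made up 1.02% and 5.92% in control and 27.2% and 18.7% in CD70Tg Tregs, so that granzyme K moved from a trace to the second place. In Tconvs *Gzmk* led with 75.1% and 63.7% in CD70Tg mice, where *Gzmb* followed with 18.3% and 26.7%. The control Tconv libraries did not share a composition, with *Gzmk* at 66.4% in the first and 28.2% in the second. These shares have n = 2 per group and were not tested.

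The balance of granzyme B to perforin also differed by subset. Per kb, the ratio of *Gzmb* to *Prf1* was 0.0933 and 0.0819 in control Tconvs and 0.801 and 1.59 in CD70Tg Tconvs. It was 6.98 and 5.14 in control and 3.70 and 5.84 in CD70Tg Tregs. All 4 Treg libraries thus held more *Gzmb* than *Prf1* per kb, and 1 of the 4 Tconv libraries did.

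**Figure D4:**
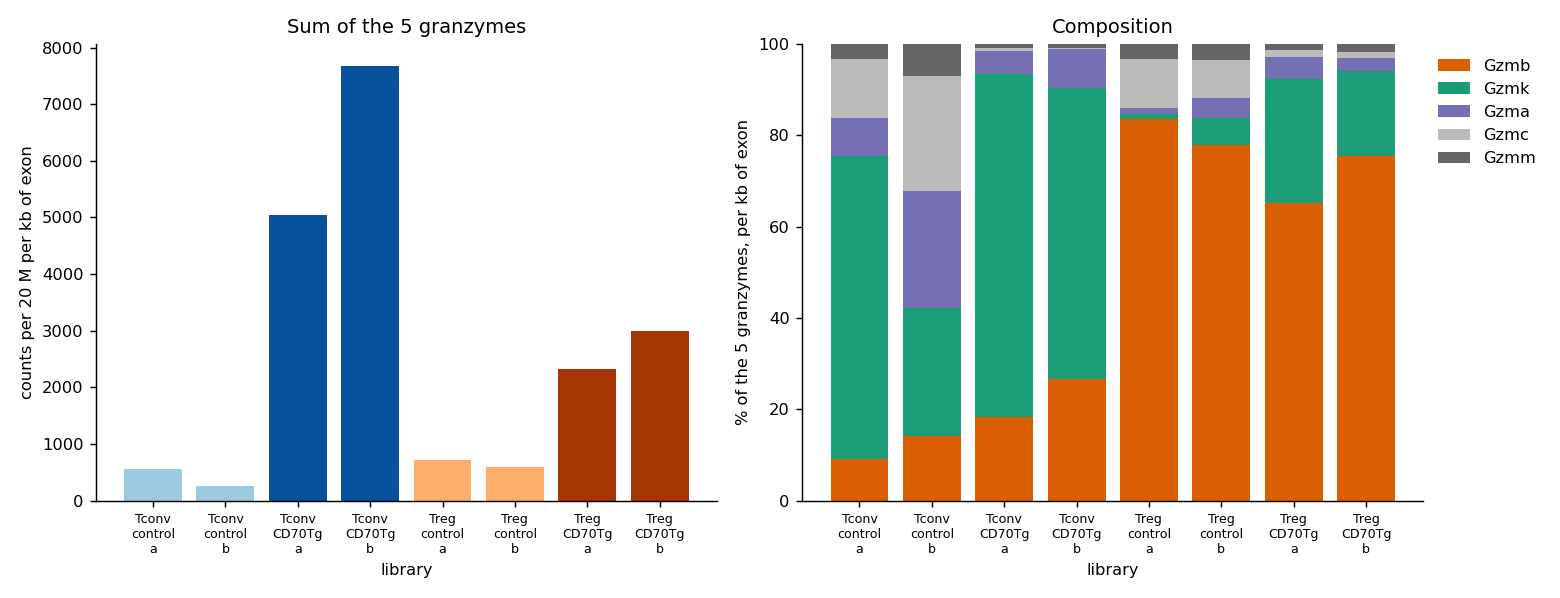
Left, the sum of the 5 granzymes in each library in counts per 20 M per kb of exon. Right, the share of each granzyme in that sum in percent; *Gzmb* is the largest part in all 4 Treg libraries (65.1% to 83.6%) and *Gzmk* in all 4 Tconv libraries (28.2% to 75.1%).

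Other genes of the granule pathway were read from lists chosen by function. Of 7 further granzyme and granule protease genes (*Gzmd*, *Gzme*, *Gzmf*, *Gzmg*, *Gzmn*, *Ctsg* and *Mcpt8*), 0 reached the minimum for testing, and none exceeded 11 in any library. The granzyme repertoire above the minimum was therefore that of the members.

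In the list of granzyme activation and inhibition, 2 of 8 tested genes were higher in CD70Tg Tregs and 5 of 8 in CD70Tg Tconvs, against 2.53% and 4.07% of all genes. The list's median log2 fold change was 0.31 in Tregs and 1.55 in Tconvs, beside -0.05 and 0.01 over all genes. *Serpina3g* and *Serpina3f*, intracellular protease inhibitors, rose in both subsets. For *Serpina3g* the log2 fold change was 2.41 (adjusted p = 3.2e-06) among Tregs against 3.55 (adjusted p = 4.9e-09) among Tconvs, and for *Serpina3f* 3.01 (adjusted p = 4.7e-05) against 3.27 (adjusted p = 5.5e-06; 3.98 without the first and 2.56 without the second CD70Tg Tconv library). *Cst7* encodes cystatin F, an inhibitor of the cathepsins that activate granzymes. It was at 736 and 580 in control and 1441 and 2244 in CD70Tg Tconvs, and at 2364 and 2212 in control and 1651 and 1838 in CD70Tg Tregs. Tconvs thus gave a log2 fold change of 1.45 (adjusted p = 3.1e-05), Tregs one of -0.39 (adjusted p = 0.21), and the responses differed by -1.85 (adjusted p = 0.0012), a call that was lost, as for every gene, without a minimum value or without a trend. *Cst7* showed, like *Gzmb*, a higher level in control Tregs and CD70Tg libraries that overlapped between the subsets. *Serpinb6b* rose in Tconvs by 1.65 (adjusted p = 1.5e-04). *Serpinb1a* was at 21 and 30 in control and 101 and 422 in CD70Tg Tconvs, a rise of 2.82 (adjusted p = 0.0013) that was 1.81 (adjusted p = 0.0491) without the second CD70Tg library, 3.82 without the first, and lost without a minimum value (adjusted p = 0.0906). The *Serpinb1a* responses differed by -3.16 (adjusted p = 0.040), which was lost without any 1 of 6 of the 8 libraries, the second CD70Tg Tconv library (-2.16, adjusted p = 0.196) among them. The *Serpinb6b* difference of -1.34 did not pass (adjusted p = 0.070), and was -1.70 without the first CD70Tg and -1.53 without the second control Tconv library.

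Between the subsets of control mice, 4 of the 8 activation and inhibition genes were higher in Tregs (against 14.7% of all genes), namely *Serpina3g* (2.72, adjusted p = 2.8e-08), *Cst7* (1.80, adjusted p = 6.1e-07), *Serpinb1a* (1.43, adjusted p = 0.028) and the cathepsin gene *Ctsh* (1.32, adjusted p = 0.0040). In CD70Tg mice *Ctsh* (1.99, adjusted p = 1.8e-04) and *Serpina3g* (1.59, adjusted p = 1.5e-05) were higher in Tregs, and *Serpinb6b* (-1.04, adjusted p = 0.0021) and *Serpinb1a* (-1.74, adjusted p = 0.011) were lower, against 12.3% of all genes higher and 4.94% lower. Without the second CD70Tg Tconv library *Serpinb6b* (-0.68) and *Serpinb1a* (-0.73) were not called, nor was *Serpinb6b* without the first CD70Tg Treg library (-0.86). The control calls were lost for *Ctsh* without the first control Tconv (adjusted p = 0.058) or second control Treg library (adjusted p = 0.0536), and for *Serpinb1a* without the first control Tconv (adjusted p = 0.13) or first control Treg library (adjusted p = 0.15).

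Of 6 genes listed for the chondroitin sulfate chains that serglycin carries and for calreticulin, 2 rose in Tregs and 2 in Tconvs, against 2.53% and 4.07% of all genes. *Chsy1*, a chondroitin synthase, was at 352 and 327 in control and 1980 and 3169 in CD70Tg Tconvs, and at 452 and 526 in control and 1014 and 1066 in CD70Tg Tregs. *Chst11*, a chondroitin 4-O-sulfotransferase, was at 54 and 53 in control and 845 and 1594 in CD70Tg Tconvs, and at 141 and 106 in control and 575 and 615 in CD70Tg Tregs. The groups were apart for both genes in both subsets, while the *Srgn* transcript moved little. *Chsy1* gave log2 fold changes of 2.87 (adjusted p = 2.7e-08) for Tconvs and 1.08 (adjusted p = 0.0020) for Tregs, and *Chst11* of 4.32 (adjusted p = 1.6e-08) and 2.24 (adjusted p = 8.7e-05). Both responses were smaller in Tregs, by -1.78 for *Chsy1* (adjusted p = 0.0029) and -2.08 for *Chst11* (adjusted p = 0.013). The *Chsy1* call in Tregs was lost without the first control Treg library (0.98, under the fold threshold) and with limma-voom (adjusted p = 0.112). The *Chst11* difference did not pass without the second CD70Tg Tconv, first CD70Tg Treg or first control Treg library (adjusted p = 0.0764, 0.0586 and 0.0603). The other 4 of the 6 genes in this list were not called in either subset. Between subsets, *Chst11* was higher in control Tregs than in control Tconvs (1.12, adjusted p = 0.0033), and in CD70Tg mice *Chsy1* (-1.26, adjusted p = 6.6e-05) and the xylosyltransferase gene *Xylt2* (-1.33, adjusted p = 1.9e-06) were lower in Tregs. The *Chst11* difference was under the fold threshold without the first control Treg library (0.92), and that of *Chsy1* without the second CD70Tg Tconv library (-0.93).

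Genes of granule targeting and the lysosomal membrane gave 0 calls among 7 tested in either subset by limma. At an unadjusted p-value under 0.05 there were 3 in Tregs and 2 in Tconvs, against 21.6% and 19.1% of all genes. Of 12 genes of granule release, 1 rose in Tregs and 3 in Tconvs, against 2.53% and 4.07% of all genes. *Sytl3*, a synaptotagmin-like protein, rose by 2.31 (adjusted p = 6.9e-04) among Tregs and by 3.09 (adjusted p = 1.7e-05) among Tconvs. The *Sytl3* call in Tregs was lost with limma-voom (adjusted p = 0.238). *Stx11*, a syntaxin required for granule fusion, was at 457 and 206 in control and 580 and 1077 in CD70Tg Tconvs, a log2 fold change of 1.35 (adjusted p = 0.0056) that was not called without the second CD70Tg (0.91, adjusted p = 0.138) or second control Tconv library (0.78, adjusted p = 0.0756). *Sytl2* rose in Tconvs by 1.40 (adjusted p = 3.1e-04). Control Tregs exceeded control Tconvs in *Stx11* (2.24, adjusted p = 1.2e-05), *Sytl2* (2.29, adjusted p = 3.3e-07) and *Sytl1* (1.80, adjusted p = 1.1e-05), against 14.7% of all genes. *Sytl3* was lower in them (-2.15, adjusted p = 1.3e-04), against 4.43%. In CD70Tg mice *Stx11* (1.33), *Sytl2* (1.09) and *Sytl1* (1.72) were again called higher in Tregs and *Sytl3* (-2.94) lower, against 12.3% and 4.94% of all genes. Without the first CD70Tg Tconv library *Stx11* (0.88) and *Sytl2* (0.72) were under the fold threshold there. Among 4 death ligand genes, *Fasl* was called in Tconvs (1.05, adjusted p = 0.0054), against 4.07% of all genes. That call was not kept without the second CD70Tg (0.97) or second control Tconv library (1.01). No gene was called in Tregs, where 1 had an unadjusted p-value under 0.05, against 21.6% of all genes. *Fasl* was lower in Tregs than in Tconvs of control (-1.95, adjusted p = 3.4e-06) and CD70Tg mice (-2.44, adjusted p = 3.8e-07), against 4.43% and 4.94% of all genes. *Tnf*, *Lta* and *Tnfsf10* were higher in control Tregs (1.11 to 1.21), against 14.7% of all genes. Without the second control Tconv library *Tnf* was under the fold threshold (0.95). The responses of *Tnfsf10*, which encodes TRAIL, differed by -0.89 (adjusted p = 0.044), a call lost without any 1 of 7 of the 8 libraries (adjusted p = 0.0502 to 0.26).

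**Figure D5:**
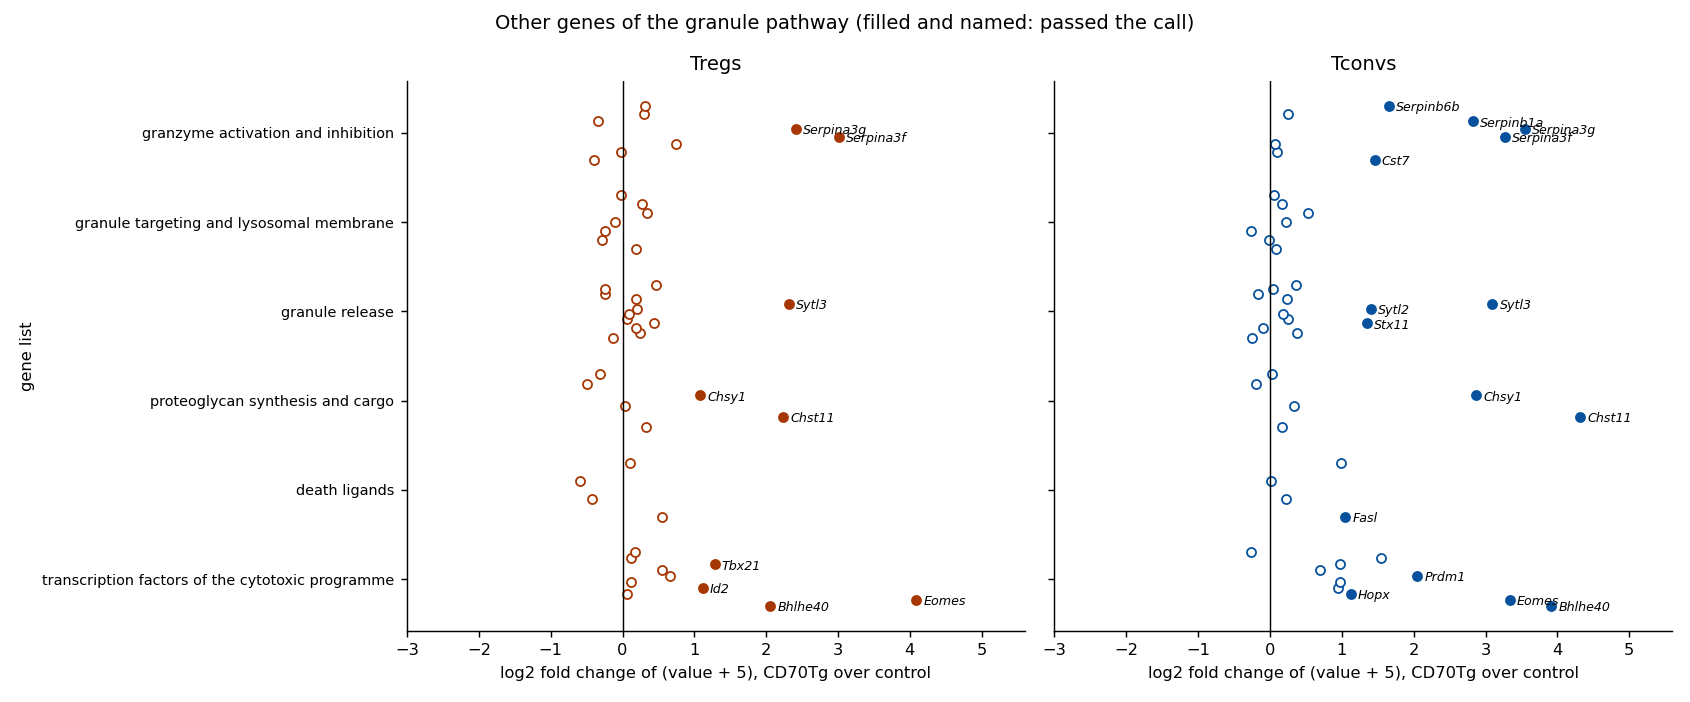
Log2 fold change of CD70Tg over control, on the log2(value + 5) scale, for tested genes of 6 granule pathway lists in Tregs (left) and Tconvs (right), with 1 point per gene; filled, named points passed the call. The called genes lie to the right of 0 in both panels, and the targeting and lysosomal list has no filled point.

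Of 10 transcription factors of the cytotoxic programme, 4 were higher in CD70Tg Tregs and 4 in CD70Tg Tconvs, against 2.53% and 4.07% of all genes. *Eomes*, the T-box factor of effector and memory lymphocytes, was at 93 and 75 in control and 1547 and 1458 in CD70Tg Tregs, and at 352 and 258 in control and 2807 and 3386 in CD70Tg Tconvs. The log2 fold change reached 4.09 (adjusted p = 2.2e-09) for Tregs and 3.33 (adjusted p = 4.2e-09) for Tconvs. *Tbx21*, which encodes T-bet, was at 296 and 250 in control and 607 and 735 in CD70Tg Tregs (1.28, adjusted p = 0.019), and at 819 and 635 in control and 848 and 2368 in CD70Tg Tconvs (0.97, adjusted p = 0.066). *Eomes* thus separated the genotypes in both subsets, and *Tbx21* had CD70Tg Tconv libraries that lay far apart. In Tconvs the *Tbx21* log2 fold change was 1.71 without the first CD70Tg library, and limma-voom called it (1.15, adjusted p = 0.033). The *Tbx21* call in Tregs was lost without any 1 of the 4 Treg libraries (adjusted p = 0.063 to 0.126). *Bhlhe40* rose in both subsets (Tregs 2.06, adjusted p = 7.3e-05, and Tconvs 3.91, adjusted p = 1.6e-08). *Id2* was called in Tregs (1.11, adjusted p = 1.7e-04), and *Prdm1* (2.04, adjusted p = 1.5e-07) and *Hopx* (1.12, adjusted p = 0.0034) in Tconvs. In Tconvs *Id2* lay just under the fold threshold (0.95, adjusted p = 3.9e-04), and the difference of its responses did not pass (0.17, adjusted p = 0.84). *Hopx* was at 845 and 896 in control and 1326 and 2712 in CD70Tg Tconvs, and its fold change was under the threshold without the second CD70Tg library (0.60). The responses differed for *Bhlhe40* (-1.86, adjusted p = 0.013, and 0.0585 without the second CD70Tg Tconv or 0.0849 without the first CD70Tg Treg library) and *Prdm1* (-1.38, adjusted p = 0.0044). In control mice *Nfil3* (3.15, adjusted p = 8.1e-07), *Prdm1* (2.88, adjusted p = 7.2e-10) and *Hopx* (1.71, adjusted p = 1.5e-05) were higher in Tregs than in Tconvs, and *Zfp683* (-4.04, adjusted p = 1.0e-06), *Id2* (-2.04, adjusted p = 1.9e-08), *Eomes* (-1.79, adjusted p = 1.3e-06) and *Tbx21* (-1.39, adjusted p = 0.0018) were lower. In CD70Tg mice the same 7 were called on the same side except *Hopx*, which was not called (0.66, and 1.17 without the second CD70Tg Tconv library). Over all genes, 14.7% were higher and 4.43% lower in control Tregs, and 12.3% and 4.94% in CD70Tg Tregs. Among CD70Tg mice, *Eomes* fell under the fold threshold without the second CD70Tg Tconv (-0.90) or second CD70Tg Treg library (-0.99). *Tbx21* did so without the second CD70Tg Tconv (-0.34) or first CD70Tg Treg library (-0.94), and was at -1.82 without the first CD70Tg Tconv library.

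Markers of other cell types were read beside these results. The sum of *Cd8a* and *Cd8b1* was 681 to 720 in control and 1563 to 1590 in CD70Tg Tconvs, and 317 to 417 in control and 631 to 660 in CD70Tg Tregs. *Cd8a* was at 17 and 28 in control and 508 and 608 in CD70Tg Tconvs, and at 25 and 71 in control and 262 and 223 in CD70Tg Tregs. It was called higher in both subsets (Tconvs 4.38, adjusted p = 9.8e-07; Tregs 2.37, adjusted p = 0.0012, with 1.70 without the first and 3.04 without the second control Treg library), although it too reached the minimum for testing only through CD70Tg libraries, and *Cd8b1* was not called (0.58 and 0.34). Cells carrying CD8β had been depleted before the sort, and the part of these 2 genes' RNA in the granule results was not tested.

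The 6 NK and ILC1 markers lay the other way, with a sum of 429 to 466 in control and 90 to 102 in CD70Tg Tconvs, and of 36 to 64 in control and 0 to 11 in CD70Tg Tregs. *Klrb1c* made up most of it and fell in both subsets, although the Treg fold change was -1.73 without the first and -3.41 without the second CD70Tg library, and not called without the first control library (adjusted p = 0.054). *Ncr1*, the defining NK receptor, was at 0 in 7 libraries and at 2 in the other. The 5 neutrophil markers summed to 5 in both control Treg libraries and to 171 to 191 in CD70Tg Tregs, where *S100a8* and *S100a9* gave most reads and *Ly6g*, *Mpo* and *Elane* stayed at 11 or below. In Tconvs that sum stayed at 6 to 18. The 4 dendritic cell markers summed to 53 to 116 in control and 165 to 333 in CD70Tg Tconvs, and to 84 to 129 in control and 334 to 357 in CD70Tg Tregs. The 5 B cell markers summed to 151 to 176 and 61 to 89 in Tconvs and to 254 to 379 and 426 to 473 in Tregs, in the same order. The 5 macrophage markers summed to 1464 to 1465 and 890 to 1150 in Tconvs and to 2560 to 2600 and 2444 to 2698 in Tregs. Within that level Treg sum the genes went both ways, with *Itgam* at 146 and 198 in control and 377 and 381 in CD70Tg Tregs (1.13, adjusted p = 0.013), *Lyz2* at 641 and 872 against 1181 and 1077 (0.59, adjusted p = 0.072), and *Csf1r* at 1500 and 1205 against 930 and 762 (-0.67, adjusted p = 0.029, under the fold threshold). The *Itgam* call was lost without the first control or either CD70Tg Treg library (adjusted p = 0.0601 to 0.193). The 4 mast cell and basophil markers, cells that also store serglycin, summed to at most 36, with *Fcer1a* at 0 in all libraries. The part of these cells in the member results was not tested.

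Over the 8 libraries, the profile of the members' mean standardized log2 value was followed closely by *Nkg7* (Pearson r = 0.980), *Gzmk* (0.932), *Gzmm* (0.929), *Gzma* (0.926) and *Serpinb9* (0.917). *Gzmb* (0.660), *Ctsw* (0.682) and *Prf1* (0.816) followed it less closely, *Srgn* hardly (0.101), and *Gzmc* ran opposite (-0.926). Outside the members and lists, the genes most like the profile were *1500009L16Rik* (0.987), *Anxa6* (0.982), *Clgn* (0.982), *Pcdhgc3* (0.982) and *H2-DMa* (0.981). These correlations are descriptions over 8 libraries that fall into 4 groups of 2, and the members themselves make up the profile.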

How the data were processed

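RNA-seq was available for Tregs and Tconvs of control and CD70Tg mice. The deposited table holds scaled read counts, treated here as a score because they are neither raw counts nor CPM, which the authors made by trimming reads with Trimmomatic (0.36), mapping to mm10 with STAR (2.5.3), counting per gene with HTSeq (0.9.1), scaling each library to 20 M and rounding to whole numbers. The totals were 19963628 to 20164600. How strand and reads with several hits were treated is not given in the sources used here. Columns named KO were read as the CD27+/- controls, and those named TG as CD70Tg.

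Depth was recovered from the step between low values, which is what 1 read is worth. It is less certain for the deepest library, whose step is under 1. The 4131 rows named after clones were left out, as their low values do not follow that step. Genes with at least 60 in at least 2 of 8 libraries were tested with limma (3.58.1, R 4.3.3) on log2(value + 5), in a single fit with 4 groups, a trend in the prior variance and Benjamini-Hochberg adjustment over 12816 genes. The prior had 12.3 degrees of freedom. A fold change on this scale understates changes of low genes. Differences between responses were called on the adjusted p-value alone. The scripts were tested on simulated data.

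Alternatives were pseudocounts of 1 and 20, no minimum, a mean of at least 60, median-of-ratios factors, quantile normalization, limma-voom on recovered reads, no trend, fits of the compared groups only, clone-named rows kept, values not divided by length, and leaving out each library. After the data were seen, they were also applied to the list genes, where the report gives calls lost, and some values that grew, without 1 library, but not every change. Genes named were the members, called genes of the pathway lists with *Eomes* and *Tbx21*, the 5 other genes most like the members' profile, genes between neighbouring granzymes and markers. *Cd27* and *Cd70* were added for the genotype and *Serpinb9b* for shared sequence. The members and lists were chosen with earlier results of these data known. Loci and lengths came from GENCODE M21 and promoters from RefSeq.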

Additional observations from a re-analysis of the deposited data

Results flagged for a closer look

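The *Gzmb* response to CD70 differed between the subsets, being -3.10 on the log2 scale in Tregs minus Tconvs (adjusted p = 8.7e-04 in the interaction contrast of limma). The control libraries were at 850 and 666 in Tregs and at 72 and 51 in Tconvs, and all 4 CD70Tg libraries were above their controls.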

How the results depend on the processing

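No paired analysis was possible because the columns of the table carry no replicate numbers that match those of the labels. The member differences called by limma between groups, and that of the *Gzmb* responses, kept their direction under the alternatives that gave a value. Uncalled differences that turned were *Gzmb* between CD70Tg subsets, the *Gzmk* and *Gzma* responses, *Gzmc* between both pairs of subsets, and *Gzmm* and *Serpinb9* between control subsets. The number of members called in Tregs was 5, and 3 without a minimum value, with limma-voom and without a trend. The Tconv count was 7, and 5 without a minimum or with quantile normalization, 6 with a mean of at least 60, and 8 with limma-voom and without a trend, 1 of them lower (*Gzmc*). For the difference between responses it was 1, and 0 without a minimum, with limma-voom and without a trend. Each of these had 3 members at an unadjusted p-value under 0.05, beside 2249 of 26467, 1207 of 12816 and 1300 of 12816 genes. The count for the difference was 2 with median-of-ratios factors and with quantile normalization, where *Prf1* joined *Gzmb*. Between control subsets it was 5, 3 with limma-voom, and 6 with median-of-ratios factors and quantile normalization, where *Nkg7* joined. Leaving out 1 library gave 4 to 5 members in Tregs, 5 to 8 in Tconvs, 1 to 2 for the difference (2 without the second control Tconv library, where *Prf1* joined), 4 to 6 between control subsets (6 with *Nkg7*, without the first control Tconv or the second control Treg library) and 5 between CD70Tg subsets, where *Gzmb* replaced *Gzma* without the second CD70Tg Tconv library. The share of the leading granzyme moved by less than the spread between libraries when values were not divided by length. The cause of these changes was not tested. Over all genes, 462 calls in Tregs became 202 without a minimum value and 173 with limma-voom, 596 in Tconvs became 283 without a minimum, and leaving out 1 library gave as few as 220 in Tregs (without the first control Treg library; 267 without the first CD70Tg Treg library), 304 in Tconvs (without the second CD70Tg Tconv library) and 59 to 271 for the difference (without the first CD70Tg Treg and the first CD70Tg Tconv library). With limma-voom the calls in Tconvs rose to 859 (705 higher and 154 lower). Further, 131 for the difference became 63 with limma-voom and 0 without a minimum or without a trend. In the main analysis 1372 genes (10.7%) had an unadjusted p-value under 0.05 for the difference. The Treg libraries hold the fewest reads, so that *Gzma*, *Gzmc*, *Gzmm* and control *Gzmk* rest there on few reads. *Gzmc* and *Gzmm* fell below some minimums and gave no value there.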
